A study of Homo sapiens with 11 samples.

Results

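Acetylation of histone H3 at lysine 27 (H3K27ac) was compared between Ishikawa cells given estradiol with dexamethasone and Ishikawa cells given estradiol without it. The comparison rests on 2 of the 8 peak lists of the series used here. The estradiol list holds 23888 peaks and the list of both hormones, called the combination, holds 20873, so 44761 of the 90458 peaks in the 8 lists belong to it. Peaks were matched where they overlapped by at least 1 bp. An estradiol peak that met a combination peak was called kept, one that met none was called vanished, and a combination peak that met no estradiol peak was called appeared. These words describe entries in peak lists and not levels of acetylation.

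Ishikawa is a human endometrial adenocarcinoma cell line, grown here without phenol red and in hormone-stripped serum before treatment, per the labels. Estradiol was given at 10 nM for 8 h, and the combination was 10 nM estradiol and 100 nM dexamethasone for 8 h, per the treatment labels. The text of the treatment protocol gives 1 h for these samples too, so the 8 h rests on the label of each sample. H3K27ac lists of vehicle (DMSO) and of 100 nM dexamethasone alone, also at 8 h, served as references. Lists of estrogen receptor (ER) sites after estradiol or the combination and of glucocorticoid receptor (GR) sites after dexamethasone or the combination, all at 1 h, served to annotate the peaks. Each list comes from 1 library, so there is no replicate spread and no test between conditions, and every 95% interval below is taken over peaks (exact binomial for a share) and covers counting error only.

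ER and GR are steroid receptors that, bound by their hormone, enter or stay in the nucleus, bind DNA at their own response elements and recruit coactivators, several of which are histone acetyltransferases. H3K27ac is laid down on nucleosomes at active promoters and enhancers and is widely used to map them. In the endometrium estradiol drives epithelial growth through ER, and glucocorticoids such as dexamethasone act on the same cells through GR.

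The 2 libraries were close in depth but not equal. The estradiol library had 10852521 usable tags and 19% duplicates, and the combination library had 9657258 usable tags and 22% duplicates. Both were called against a control of 14002417 tags, and the control was scaled down to each library. The fragment length estimated by the peak caller was 273 bp with estradiol and 280 bp with the combination. The dexamethasone list, used below as a reference, is the shortest of the H3K27ac lists with 15192 peaks, and its library had 33% duplicates. That library had 9034395 usable tags. The vehicle library, the other reference, was the deepest, with 18508574 usable tags and 21120 peaks. A call in 1 reference list and not in the other was thus made at unequal depth. What part depth, duplicates or the 1 library on each side had in the differences below was not tested.

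Most of the estradiol acetylation map was still called when dexamethasone was added, and far more peaks left the list than entered it. Of the estradiol peaks, 16550 were kept (69.3%, 68.7 to 69.9) and 7338 vanished (30.7%, 30.1 to 31.3). Of the combination peaks, 18125 were retained from the estradiol list (86.8%, 86.4 to 87.3) and 2748 appeared (13.2%, 12.7 to 13.6). With the lists cut to equal length, the kept share was 73.9% and the appeared share was 17.1%. Vanished and appeared peaks made up little of the acetylated sequence: vanished peaks covered 3.35 Mb of 24.2 Mb (13.9%) and appeared peaks covered 1.28 Mb of 20.3 Mb (6.31%).

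Vanished and appeared peaks were narrow and low within their own lists. The median width was 395 bp for vanished peaks against 863 bp for kept ones, and 385 bp for appeared peaks against 644 bp for retained ones. Pileup, the authors' fragment coverage at the summit, was ranked within each list as a percentile, with 100 for the highest peak. The median pileup percentile was 26.6 for vanished and 64.5 for kept peaks, and 15.4 for appeared and 56.4 for retained peaks. The highest vanished peak had a pileup of 101, at percentile 87.3 of the estradiol list. The highest appeared peak had a pileup of 122, at percentile 96.4 of the combination list.

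The share that vanished depended steeply on strength. The estradiol list was cut into 10 classes of about equal size by pileup, and 59.3% of peaks vanished in the lowest class, 41.1% in the fifth, 12.6% in the seventh and 0 of 2388 in the highest. Cut in the same way, the combination list held 51.5% appeared peaks in its lowest class, 9.2% in the fifth and 0.24% in the highest. Width ordered the peaks in the same way: 72.5% of estradiol peaks under 300 bp vanished, 52.7% of those of 300 to under 600 bp, 16.3% of those of 600 to under 1200 bp and 1.11% of those of 1200 bp or more. Among combination peaks of these widths 33.6%, 19.2%, 7.33% and 1.24% appeared. In the estradiol list the order by pileup within a width was seen from 300 bp upwards and not below. Among estradiol peaks of 300 to under 600 bp, the share that vanished was 59.0% in the lowest 25% of the list by pileup and 10.0% in the highest 25%. At 600 to under 1200 bp these shares were 35.0% and 1.68%. Under 300 bp the share was 71.2% in the lowest 25% of the list and 78.5% in the next. Combination peaks under 300 bp did follow pileup there: 42.6% appeared in the lowest 25% of that list and 13.8% in the next.

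**Figure D1:**
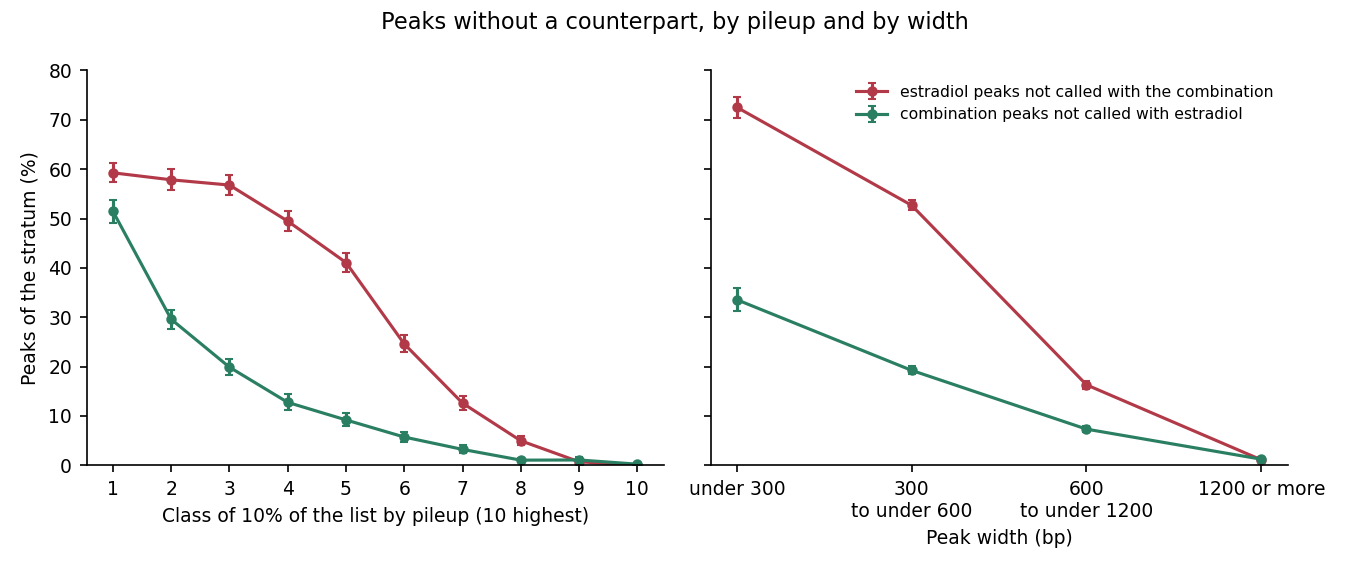
Share of estradiol peaks that vanished (red) and of combination peaks that appeared (green), in percent, by class of 10% of the own list's pileup (left) and by peak width in bp (right). Points are shares of the peaks in a stratum and bars are exact 95% intervals over peaks. The vanished share runs from 59.3% in the lowest class to 0 in the highest, and the appeared share from 51.5% to 0.24%.

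Few peaks sat at the edge of the matching rule. A gap of at most 100 bp separated 165 vanished peaks (2.25%) and 148 appeared peaks (5.39%) from the other list, and 131 kept peaks (0.792%) overlapped it by at most 100 bp. A wider gap was common: 2490 vanished peaks (33.9%) and 1169 appeared peaks (42.5%) lay within 1000 bp of a peak of the other list. If a gap of up to 1 kb counted as a match, 79.7% of estradiol peaks would be kept and 7.56% of combination peaks would appear. The median gap was 10484 bp for vanished and 1985.5 bp for appeared peaks, and 3712 vanished peaks (50.6%) and 942 appeared peaks (34.3%) stood over 10000 bp from the other list. Some estradiol peaks, wider than the rest at the median, were divided in the combination list. Of the kept peaks, 2408 (14.5%) met 2 or more combination peaks, while 977 retained combination peaks (5.39%) met 2 or more estradiol peaks. The median width of those 2408 was 1744 bp, against 770 bp for the 14142 kept peaks that met 1.

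The 5 strongest kept peaks were broad domains, and each carried an ER site. The highest, chr12:52536757-52547420 (hg19, as are all positions here), was 10664 bp wide with a pileup of 402 with estradiol and 312 with the combination. It held ER sites in both ER lists and GR sites in both GR lists. The next 4 were chr10:81093311-81097944, chr10:134257053-134262056, chr9:132313848-132325514 and chr1:15300199-15309774, with estradiol pileups of 393, 391, 379 and 370. Their combination pileups were 277, 260, 290 and 291. All 5 were also called with vehicle and with dexamethasone alone, as were 8471 of all 23888 estradiol peaks. An ER site lay near 22.5% of the 5488 estradiol peaks of 1200 bp or more and near 10.6% of all. Pileup was lower with the combination in each of the 5 strongest, in a library that was also shallower. Each of them stayed at or above percentile 99.9 of its list.

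The 5 strongest vanished peaks had no receptor site nearby, and neither had most estradiol peaks. The 5 highest were chr18:56806643-56807072 (pileup 101), chr7:100271016-100271445 (100), chr19:47353517-47354116 (97), chr12:70132608-70133736 (96) and chr12:133656901-133657837 (93). All 5 were called with vehicle, none was called with dexamethasone alone, and none had an ER or GR site of any list within 1 kb. The one on chromosome 18 lay 218817 bp from the nearest combination peak, while the one on chromosome 7 and the first of those on chromosome 12 lay 592 bp and 194 bp from one. In the highest 25% of the estradiol list by pileup 61 peaks vanished. Of these, 59 were in the vehicle list, 1 was in the dexamethasone list, 3 had an ER site and 0 had a GR site. Of all 5953 estradiol peaks in that highest 25%, 17.4% had an ER site and 10.6% had a GR site. Over the whole list of 23888 peaks, 20768 had no receptor site, 17470 were in the vehicle list and 9317 were in the dexamethasone list.

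The vanished peaks with an ER site were lower. The highest were chr15:30113493-30114664 and chr19:10443327-10444239, both with a pileup of 81, and chr15:62043079-62043541 with 74. The first had an estradiol ER site of 24.6-fold enrichment beside it and no combination ER site. The highest vanished peaks with a GR site were chr16:31128933-31129261, chr17:70656942-70657676 and chr19:17337438-17337816, with pileups of 60, 54 and 54. The widest vanished peaks, chr2:241542362-241544371, chr20:61454362-61456333 and chr17:81038064-81039760, were 2010, 1972 and 1697 bp wide and reached pileups of 49, 40 and 32. All of these peaks were in the vehicle list, as were 17470 of all 23888 estradiol peaks. None was in the dexamethasone list, where 9317 of the 23888 were.

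The strongest appeared peaks all had GR sites, and all were peaks of dexamethasone alone. The highest, chr5:66563196-66565945, was 2750 bp wide with a combination pileup of 122, and the dexamethasone list held it at percentile 98.6. GR sites of 41.6-fold enrichment with dexamethasone and 41.4-fold with the combination lay inside it, as did a combination ER site of 16.4-fold at a place with no estradiol ER site within 1 kb. The next were chr6:35696044-35697440 (pileup 103), chr1:24310133-24312354 (89), chr17:8057825-8059179 (85) and chr6:35699858-35701106 (85). The one on chromosome 17 lay at a GR site of 70.3-fold enrichment with dexamethasone and 53.6-fold with the combination. All 5 had GR sites in both GR lists, all 5 were in the dexamethasone list and none was in the vehicle list. Over all 20873 combination peaks 8.08% had a GR site, and 16.5% did in the highest 25% by pileup. In the whole list 10626 were in the dexamethasone list and 16037 in the vehicle list. Besides the one on chromosome 5, the highest appeared peaks with an ER site were chr1:168229002-168229705 (pileup 83) and chr19:1246201-1247010 (79). In all 3 the ER site was called with the combination and not with estradiol, and GR sites of both lists lay within 1 kb. Beside the peaks on chromosomes 5 and 1, the widest appeared peak was chr13:59300760-59303187, 2428 bp wide, which had a GR site of 31.2-fold with dexamethasone.

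**Figure D2:**
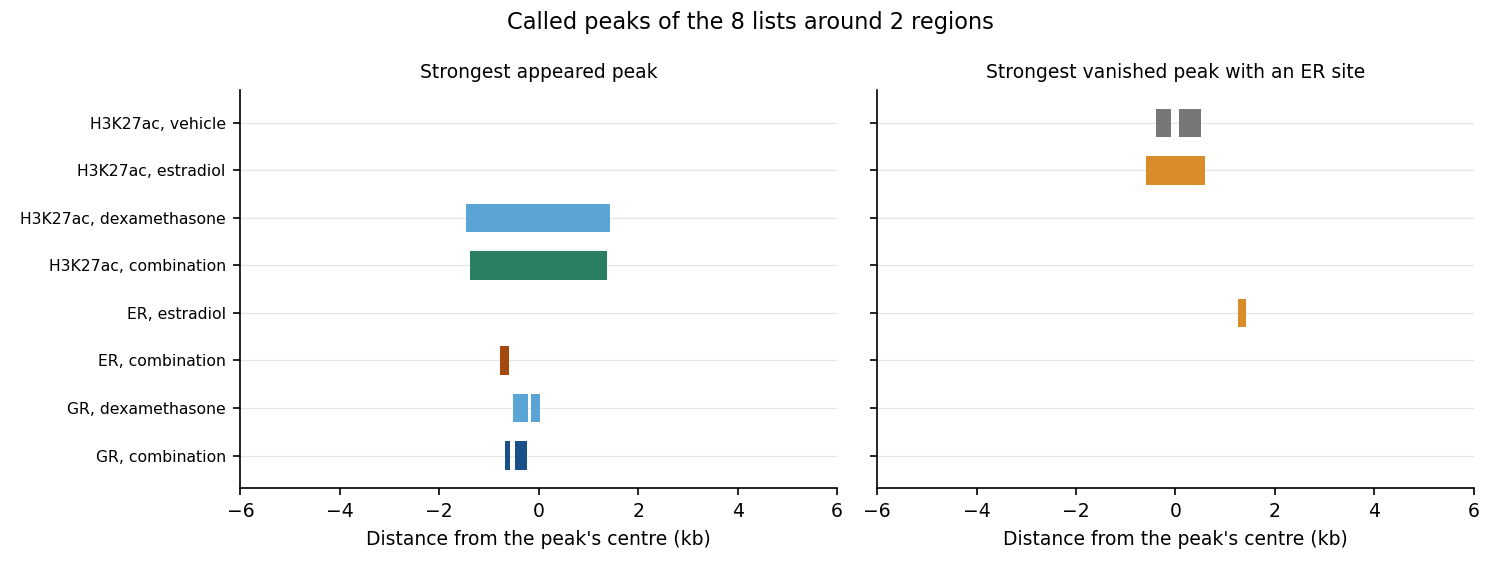
Called peaks of the 4 H3K27ac lists and 4 receptor lists around the strongest appeared peak (left, chromosome 5) and the strongest vanished peak with an ER site (right, chromosome 15), by distance in kb from the centre of that peak. Each bar spans a called peak and its height carries no value. The left region is called with dexamethasone and with the combination and has GR sites inside it, and the right region is called with vehicle and with estradiol and has 1 estradiol ER site beside it.

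Kept peaks carried receptor sites more often than vanished ones, and the contrast was larger for GR than for ER. Estradiol ER sites were found within 1 kb of 2083 kept peaks (12.6%, 12.1 to 13.1) and of 387 vanished peaks (5.27%, 4.77 to 5.81). A combination GR site lay within 1 kb of 922 kept peaks (5.57%, 5.23 to 5.93) and of 60 vanished peaks (0.818%, 0.625 to 1.05). Combination ER sites and dexamethasone GR sites gave 9.39% against 3.37% and 5.47% against 0.859%. Counted from the sites, 30.7% of all estradiol peaks vanished, against 33.2% of the 20768 with no receptor site. The share was 20.2% (18.4 to 22.2) of the 1704 with ER sites only, 8.84% (6.65 to 11.5) of the 577 with GR sites only and 5.6% (4.14 to 7.38) of the 839 with both.

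Peaks near a receptor site were wider, so the same shares were taken within widths. Among estradiol peaks of 300 to under 600 bp the vanished share was 54.1% with no site, 46.0% with ER sites only, 23.5% with GR sites only and 24.1% with both. At 600 to under 1200 bp the share was 16.9% with no site and 17.1% with ER sites only (13.7 to 20.9). It was 1.89% with GR sites only and 5.06% with both. Thus no ER difference was seen at that width, but the peaks with ER sites only were lower there. Their median pileup percentile was 46.7, against 61.1 with no site. In peaks of 1200 bp or more the vanished share was 1.32% with no site and 0.978% with ER sites only. Over all widths, from the lowest to the highest class of 25% by pileup, it was 60.8%, 49.9%, 17.2% and 1.23% with no site. With ER sites only it was 49.3%, 27.3%, 7.45% and 0.506%. Peaks with ER sites only were wider in each pileup class, and the part of width in this was not tested. The ratio of the kept to the vanished share with an ER site of either list was 2.43 over all peaks (2.19 to 2.7, a 95% interval on the log scale, as for all ratios of shares) and 1.62 within 300 to under 600 bp (1.38 to 1.89). For GR it was 5.96 over all peaks (4.87 to 7.31) and 3.57 within that width (2.75 to 4.64). With sites counted up to 10 kb away the ratios were 1.52 and 2.38, and with sites overlapping the peak they were 5.93 and 15.7.

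Appeared peaks were near GR sites more often than retained ones, while their ER share was lower over all peaks and varied in direction with width. Dexamethasone GR sites were found within 1 kb of 285 appeared peaks (10.4%, 9.26 to 11.6) and of 904 retained peaks (4.99%, 4.68 to 5.31). The combination GR list gave 10.2% and 5.09%. An estradiol ER site lay near 8.73% of appeared and 12.5% of retained peaks. Within 300 to under 600 bp, the dexamethasone GR share was 8.38% of appeared (7.11 to 9.78) and 1.53% of retained peaks (1.26 to 1.84), and the estradiol ER share was 8.72% (7.44 to 10.2) and 6.9% (6.32 to 7.5). The estradiol ER share was 11.1% of appeared and 10.1% of retained peaks at 600 to under 1200 bp, where the intervals overlap, and 11.8% (6 of 51) and 27.8% at 1200 bp or more. The ratio of the appeared to the retained share was 0.822 for ER over all peaks (0.733 to 0.923), and it turned to 1.45 within 300 to under 600 bp (1.23 to 1.7) and to 1.22 with sites up to 10 kb away. For GR the ratio was 1.76 over all peaks (1.58 to 1.97) and 4.51 within 300 to under 600 bp (3.7 to 5.5), and it turned to 0.77 where the site had to overlap the peak.

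The overlap behind that last turn was also taken by width, and the cause of the turn was not tested. Of the appeared peaks with a dexamethasone GR site within 1 kb, the site overlapped 30.5% (25.2 to 36.2) and lay beside the rest, against 69.1% (66 to 72.1) for retained peaks, which are wider. At 300 to under 600 bp a dexamethasone GR site overlapped 1.62% of appeared and 0.385% of retained peaks. At 600 to under 1200 bp the shares were 8.5% and 1.55%, and at 1200 bp or more they were 35.3% and 12.4%. Under 300 bp they were 0.394% and 0.498%, from 2 and 5 peaks.

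**Figure D3:**
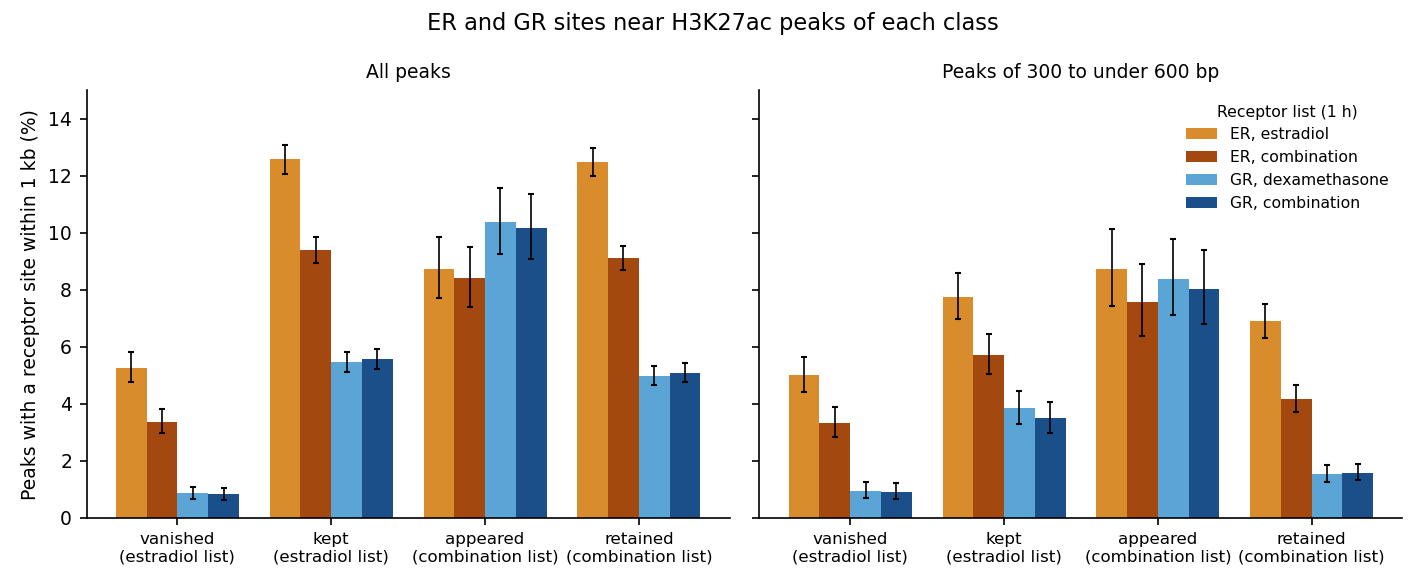
Share of peaks with a receptor site within 1 kb, in percent, for vanished and kept estradiol peaks and for appeared and retained combination peaks, over all peaks (left) and over peaks of 300 to under 600 bp (right). Colours are the 4 receptor lists and bars are exact 95% intervals over peaks. GR shares are 0.859% and 0.818% in vanished peaks and 10.4% and 10.2% in appeared peaks.

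The GR share of appeared peaks was highest among the strongest of them. The combination list was cut into classes of 25% by pileup. From the lowest to the highest class, a dexamethasone GR site lay near 7.61%, 10.4%, 23.1% and 87.5% of the appeared peaks. For retained peaks the shares were 1.66%, 2.27%, 3.29% and 11.3%. The highest class held 32 appeared peaks, of which 28 had a dexamethasone GR site (71.0% to 96.5%), 12 had a combination ER site and 32 were in the dexamethasone list. Of all 5133 combination peaks in that class, 11.7% had a dexamethasone GR site and 17.2% had a combination ER site. Over the whole list of 20873 peaks, 10626 were in the dexamethasone list. By width, 22 of the 51 appeared peaks of 1200 bp or more had a dexamethasone GR site (43.1%), against 14.1% of retained peaks that wide.

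The strength of the GR site, taken as classes of 25% of the dexamethasone GR list by the authors' −log10 q, was set beside the appeared share, which stood out in the highest class. Of combination peaks with no dexamethasone GR site 12.5% appeared. With a site of the lowest class 15.6% appeared (11.6 to 20.4), with the second 15.6%, with the third 21.6% and with the highest 40.5% (35.2 to 46). Among peaks absent from the vehicle list the shares were 45.2% with no site and 66.0%, 56.2%, 61.8% and 83.4% from the lowest to the highest class, the last from 126 of 151 peaks (76.5 to 89). The intervals of the lower 3 classes overlap. Among peaks present in the vehicle list the shares were 2.89% with no site and 4.44% in the highest class. Of the 704 combination peaks with sites of both GR lists within 1 kb, 209 appeared (29.7%), against 14.3% with a site of the combination GR list only and 15.7% with a site of the dexamethasone GR list only. The intervals were 26.3 to 33.2, 11.3 to 17.6 and 12.5 to 19.2.

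ER sites called with the combination and not with estradiol were near few peaks. Of 113 combination peaks with such a site and no estradiol ER site within 1 kb, 50 appeared (44.2%, 34.9 to 53.9). Near estradiol ER sites with no combination ER site 8.05% of combination peaks appeared, and with sites of both ER lists nearby 10.2% did.

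On the estradiol side, peaks near an ER site were kept more often than peaks with none, both in the vehicle list and absent from it. Among peaks in the vehicle list 79.6% were kept with no estradiol ER site, and 94.0%, 94.3%, 95.5% and 96.7% with a site of the lowest to the highest strength class. Of the peaks absent from the vehicle list with no estradiol ER site 32.3% were kept (31 to 33.5). With an ER site of the lowest to the highest class of 25% by −log10 q the kept shares were 61.0%, 58.3%, 65.2% and 73.7%. Peaks with an ER site were also wider. In the vehicle list the median width was 771 bp with no site and 1530.5 to 2936 bp over the ER classes. The median pileup percentile there was 60.5 against 75.1 to 93.4. Absent from the vehicle list the median widths were 371 bp against 427 to 696 bp, at percentiles 20.5 against 19.4 to 36.8. The part of width and pileup in these kept shares was not tested. A combination GR site nearby went with a higher kept share. In the highest ER class 169 of 197 peaks with a combination GR site were kept (85.8%, 80.1 to 90.3), against 159 of 248 without one (64.1%, 57.8 to 70.1). The peaks with the GR site were also wider, at a median of 800 bp against 632 bp, and higher, at percentile 45.2 against 28.7. With no ER site but with a combination GR site 49 of 56 peaks were kept (87.5%, 75.9 to 94.8), at a median width of 420 bp against 371 bp with neither.

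**Figure D4:**
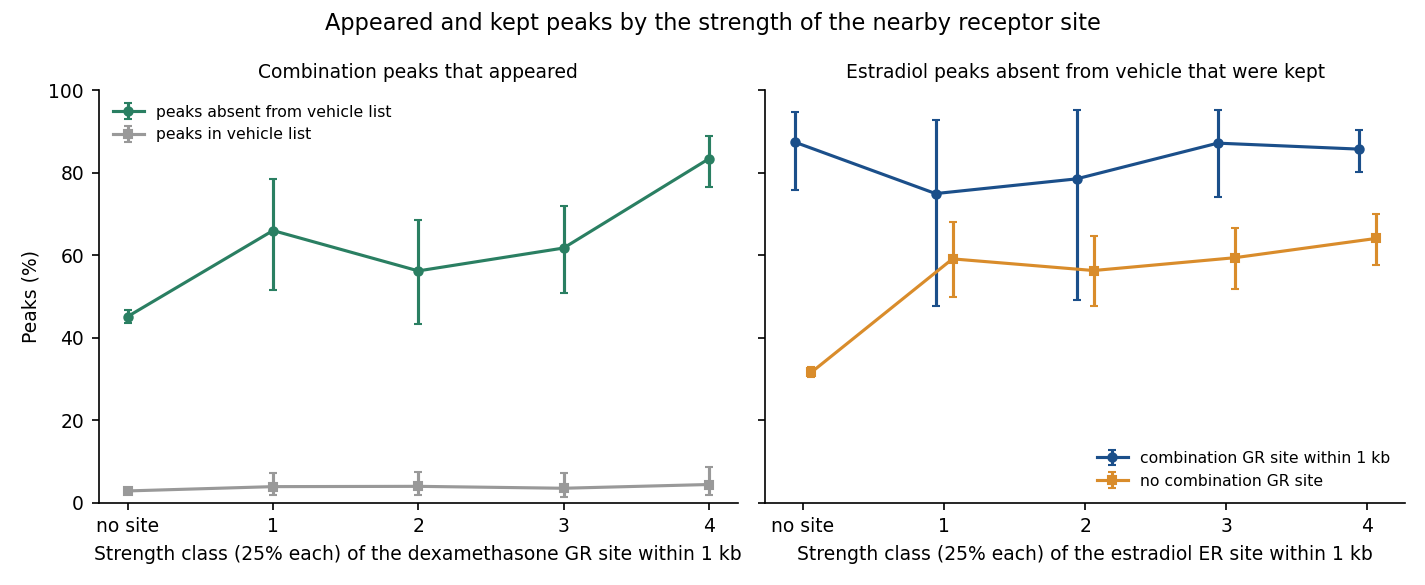
Left, share of combination peaks that appeared, in percent, by the strength class (25% each) of the dexamethasone GR site within 1 kb, for peaks absent from the vehicle list (green) and present in it (grey). Right, share of estradiol peaks absent from the vehicle list that were kept, by the strength class of the estradiol ER site, with (blue) and without (orange) a combination GR site within 1 kb. Class 4 is the strongest and bars are exact 95% intervals over peaks. The green point reaches 83.4% at class 4, and the blue and orange points there are 85.8% and 64.1%.

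Counted from the receptor sites, GR sites had acetylation in the combination list only more often than in the estradiol list only, and ER sites the reverse. Of the 1815 dexamethasone GR sites, 835 had a peak of both lists within 1 kb (46.0%), 149 had one of the combination list only (8.21%, 6.99 to 9.57) and 37 one of the estradiol list only (2.04%, 1.44 to 2.8). In the strongest 25% of these GR sites, 74 of 455 had a peak of the combination list only (16.3%) and 6 had one of the estradiol list only (1.32%). Of the 3560 estradiol ER sites, 2025 had a peak of both lists (56.9%), 103 had one of the combination list only (2.89%, 2.37 to 3.5) and 209 had one of the estradiol list only (5.87%, 5.12 to 6.69). Merged, the 2 lists gave 25504 regions, of which 7336 were in the estradiol list only and 2747 in the combination list only. An excess on the estradiol side was therefore not particular to ER sites. The estradiol list is the longer of the 2, and the part of its length in these counts was not tested.

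Few vanished peaks were peaks of dexamethasone alone, and most appeared peaks were absent from the vehicle list. Of the vanished peaks 3901 were in neither list (53.2%), 3149 were in the vehicle list only (42.9%), 108 were in the dexamethasone list only (1.47%) and 180 were in both (2.45%). Of the kept peaks 10.1%, 35.3%, 4.46% and 50.1% had these patterns. Thus 96.9% of estradiol peaks that met a dexamethasone peak were kept (96.5 to 97.3), and of the 5572 in neither list 30.0% were. Peaks called with vehicle and not with dexamethasone vanished in 35.0% of 8999 cases, and peaks called with both vanished in 2.12% of 8471. These groups also differed in strength. Kept peaks in the dexamethasone list had a median width of 1125 bp and a median pileup percentile of 71.9. Peaks in neither list had 510 bp and 28.7 if kept, and 353 bp and 20.5 if vanished. Kept peaks in the vehicle list only had 752 bp and 63.6. The part of strength in these shares was not tested.

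Kept peaks that belonged to neither reference list were often near ER sites. Of these 1671 peaks, 541 had an estradiol ER site (32.4%, 30.1 to 34.7), 204 had a combination GR site (12.2%) and 33 had a dexamethasone GR site (1.97%). Vanished peaks in neither list had these sites in 8.0%, 1.15% and 0.743% of cases.

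Of the appeared peaks, 1171 were in neither reference list (42.6%), 1105 were in the dexamethasone list only (40.2%), 362 were in both (13.2%) and 110 were in the vehicle list only (4.0%). Of the retained peaks 10.6%, 3.48%, 47.1% and 38.8% had these patterns. Thus 53.4% of appeared and 50.5% of retained peaks met a dexamethasone peak, while 17.2% and 85.9% met a vehicle peak. Of the 1736 combination peaks called with dexamethasone and not with vehicle, 63.7% appeared (61.3 to 65.9), against 1.54% of the 7147 called with vehicle and not with dexamethasone. Of the 3100 in neither list 37.8% appeared, and of the 8890 in both 4.07% did. Appeared peaks in the dexamethasone list only and in neither list had different shares of receptor sites. Those in the dexamethasone list only had a dexamethasone GR site in 173 of 1105 cases (15.7%, 13.6 to 17.9) and an estradiol ER site in 38 (3.44%, 2.44 to 4.69). Those in neither list had a dexamethasone GR site in 79 of 1171 cases (6.75%, 5.38 to 8.34) and an estradiol ER site in 176 (15.03%, 13 to 17.2). Retained peaks of these patterns differed in the same directions, with a dexamethasone GR site near 11.3% of those in the dexamethasone list only and 1.76% of those in neither, and an estradiol ER site near 14.3% and 31.2%. The contrast is therefore not particular to appeared peaks. Of the appeared peaks 2225 had no ER or GR site within 1 kb, and the appeared share was 12.7% of the 17499 combination peaks with no site against 13.2% of all.

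Peaks called in both lists were compared by rank. In 12316 cases 1 estradiol peak met 1 combination peak and neither met another, which took in 74.4% of the kept peaks. Each was ranked by pileup among these pairs in its own list, and the difference is the combination percentile minus the estradiol percentile. Across pairs, Spearman's rho was 0.758 for pileup and 0.709 for width. These are descriptions across peaks of 2 libraries. The combination peak was narrower in most pairs, with a median width ratio of 0.868.

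Pairs with GR sites ranked higher with the combination, and their combination peaks were not narrower at the median. The median rank difference was −2.06 percentile points in 10664 pairs with no site, 0.41 in 878 pairs with ER sites only, 10.8 in 328 pairs with GR sites only and 3.68 in 446 pairs with both. Of the pairs with GR sites only 266 ranked higher with the combination (81.1%, 76.4 to 85.2), against 42.9% of pairs with no site. The median width ratio was 0.847 with no site, 0.914 with ER sites only, 1.09 with GR sites only and 1.00 with both. Narrow pairs tended to rank higher in the combination list in any case, so the difference was also taken by width. In pairs whose estradiol peak was 300 to under 600 bp wide the median was 0.58 with no site, 5.92 with ER sites only, 25.4 with GR sites only and 19.4 with both. At 600 to under 1200 bp the medians were −5.48, −1.70, 13.7 and 10.3 in the same order, and at 1200 bp or more they were −1.14, −0.16, 3.41 and 1.08. Thus the median with ER sites only was above 0 in the narrower pairs and below 0 in these wider ones, and the difference with GR sites only was smaller in wider pairs.

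The reference lists ordered the pairs as well. Pairs called with vehicle and not with dexamethasone had a median difference of −9.98 (5120 pairs), and pairs called with dexamethasone and not with vehicle had 18.5 (451 pairs). In the 47 pairs of the latter kind with a dexamethasone GR site the median was 31.1, and 45 of them ranked higher with the combination. In the 5% of pairs with the largest gain in rank 14.3% had a dexamethasone GR site and 87.8% were in the dexamethasone list. In the 5% with the largest loss 0.325% had a dexamethasone GR site (2 of 615 pairs), 11.4% were in the dexamethasone list and 96.9% were in the vehicle list. Among pairs with a rank difference within 25 points either way these shares were 4.08%, 47.3% and 86.1%. Pairs near no difference had many receptor sites too, with an estradiol ER site in 22.6% of the group around −0.41, whose estradiol peaks were also the widest with a median of 1197 bp.

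**Figure D5:**
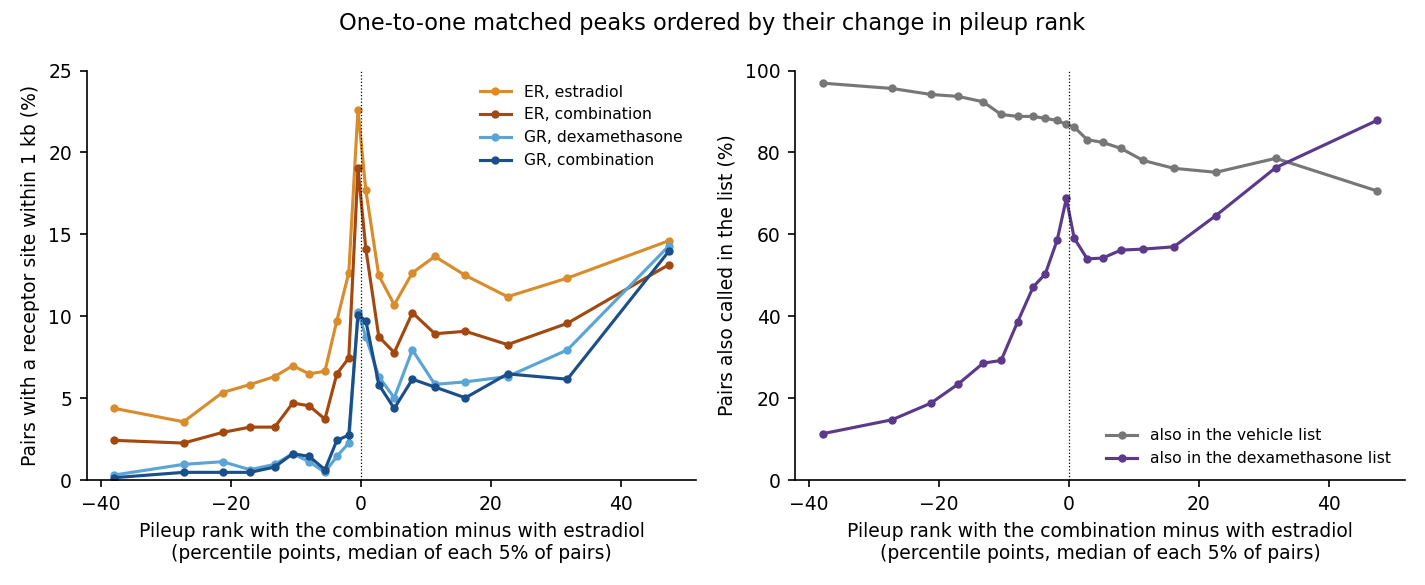
Matched pairs in 20 groups of 5% ordered by the difference in pileup rank, combination minus estradiol, in percentile points (horizontal axis, median of each group). Left, share of pairs with a site of each receptor list within 1 kb, in percent, and right, share also called in the vehicle and dexamethasone lists. The share in the dexamethasone list is 11.4% at the left end and 87.8% at the right end, and the dexamethasone GR share is 0.325% and 14.3%.

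The largest gain in rank, 79.1 points, was at chr3:60694368-60695773, where pileup was 29 with estradiol and 76 with the combination. The next largest gains were at chr2:102872085-102873335 (28 and 72), chr11:34676654-34677358 (26 and 61), chr4:138951952-138954230 (35 and 80) and chr3:175884058-175885167 (24 and 57). All 5 were in the dexamethasone list, the one on chromosome 11 had a GR site of 7.09-fold with dexamethasone, the one on chromosome 2 had a GR site of 8.91-fold with the combination, and the first, on chromosome 3, had ER sites of both lists. Each position spans both peaks of a pair. The largest loss, 65.0 points, was at chr20:57606697-57607393, where pileup was 81 with estradiol and 25 with the combination. The others were at chr14:104689918-104691653 (106 and 30), chr17:4890162-4891239 (74 and 23), chr1:90460621-90461537 (85 and 27) and chr9:6756872-6758468 (89 and 28). All 5 were in the vehicle list, 1 was in the dexamethasone list, and none had an ER or GR site within 1 kb. Of all 12316 pairs, 10664 had no receptor site. By reference list, 5120 pairs were in the vehicle list only, 451 in the dexamethasone list only and 5434 in both. A call with vehicle and no receptor site were therefore common to most pairs.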

How the data were processed

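The submitters' processing notes name hg19, Bowtie 1.1.2 and MACS2 2.1.0.20140616. Each H3K27ac or receptor library, per the file headers, was called against a control at a p cutoff of 1e-10 with at most 1 tag per position, and the larger of ChIP and control was scaled down. The labels of the control name both input and IgG, so its kind is uncertain. Pileup, as deposited, is a signal: how many extended fragments cover the summit. Significance was deposited as −log10 of p and q, and fold enrichment is the authors' ratio of summit pileup to local background. Ranks were taken within 1 list, since depth differs. Pileups and fold enrichments printed side by side from different lists are as deposited and were not adjusted for depth between them. Positions are the authors' 1-based hg19 coordinates.

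Peaks were matched by overlap of at least 1 bp, and receptor sites by a gap of at most 1000 bp, with Python 3.11.15, pandas 2.3.3 and scipy 1.17.1. Shares carry exact Clopper-Pearson 95% intervals. Named peaks are the 5 of highest pileup in each class, the 3 highest with an ER site, with a GR site and by width among vanished and appeared peaks, and the 5 largest rank differences each way. Matching was tested on simulated data. Members and lists were chosen with earlier results of these data known. Gene names and sequences were not used here, since no hg19 annotation or genome was used. Of the 11 samples, 3 (receptors with vehicle, and the control) were not analysed here.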

Additional observations from a re-analysis of the deposited data

How the results depend on the processing

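All settings were planned except the one without chromosomes 16, 19 and 22, which was chosen after seeing the data. The kept share of estradiol peaks was 68.2% with the summit inside the other peak, 68.0% with overlap of 50% of the shorter peak, 79.7% with gaps of up to 1 kb, 67.4% with both lists cut to the stronger 50%, 73.9% with lists of equal length, 92.4% with only the first list cut to its stronger 50%, 70.1% without chromosomes 16, 19 and 22 and 67.8% over union regions. The appeared share of combination peaks in the same order was 14.7%, 14.9%, 7.56%, 15.96%, 17.1%, 3.15%, 14.3% and 15.1%.

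The ratio of kept to vanished shares near ER was 5.93 with the site overlapping the peak, 1.52 within 10 kb, 2.86 with lists of equal length and 1.62 in peaks of 300 to under 600 bp. For GR it was 15.7, 2.38 and 3.57 with overlap, 10 kb and that width, and 9.41 with the stronger 50% of receptor sites. The ratio of appeared to retained shares near ER was 0.301 with overlap and reversed to 1.22 within 10 kb and to 1.45 in peaks of 300 to under 600 bp. For GR it reversed to 0.77 with overlap, and was 2.32 with the stronger 50% of receptor sites, 1.57 with lists of equal length, 2.1 with no peak of the other list within 1 kb and 4.51 in peaks of 300 to under 600 bp. The report gives the GR overlap share by width, and the cause of that change and of the others was not tested.

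Ranked by fold enrichment, the median difference of pairs was −2.82 with no site, 1.84 with ER sites only and 14.1 with GR sites only, and by −log10 q it was −2.64 with no site. In the stronger 50% of each list the median widths of vanished, kept, appeared and retained peaks were 556, 1127, 638 and 958 bp.

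A peak that misses the p cutoff is not listed. With 1 library on each side, a change in level, a difference in depth and chance in calling cannot be told apart for a single vanished or appeared peak. No paired analysis was possible because each group holds 1 library. Leaving out a replicate was not possible either.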

Other observations

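The classes were not spread evenly over the chromosomes. The vanished share ranged from 25.2% on chromosome 18 to 39.3% on chromosome X, and was 36.8% on chromosome 16, 35.7% on chromosome 19 and 37.8% on chromosome 22. The appeared share was lowest on these same 3 autosomes, at 3.73%, 4.25% and 4.72%, and highest on chromosomes 13 and 4, at 23.9% and 22.8%. Among peaks of 300 to under 600 bp with no receptor site 3.87%, 3.83% and 8.74% appeared on chromosomes 16, 19 and 22, and 34.1% and 33.1% on chromosomes 13 and 4. In that subset the vanished share ranged from 43.8% on chromosome 7 to 67.6% on chromosome 22, with 45.7% on chromosome 18 and 56.4% on chromosome X. Base composition, gene density and copy number were not analysed here, and their part in this was not tested.

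Neighbouring peaks of one class were grouped where the gap was at most 5 kb, a grouping chosen after seeing the data. Of the vanished peaks 5253 stood alone, and 5 groups had 5 or more. Of the appeared peaks 1850 stood alone, and 4 groups had 5 or more. One of these groups, chr19:18127161-18132833, held 5 appeared peaks, of which 4 were in the dexamethasone list, 0 were in the vehicle list and 2 had a dexamethasone GR site. A group of 4 at chr6:35696044-35701106 took in 2 of the 5 strongest appeared peaks. A group of 5 at chr3:166179377-166184109 was in neither reference list and had 0 receptor sites. Among vanished peaks, a group of 5 at chr13:113718507-113724759 was also in neither reference list and had 0 receptor sites.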
